A study of Mus musculus with 13 samples.

Results

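The enzymes described here modify, trim and cross-link collagen. The lysyl oxidases are Lox, Loxl1, Loxl2 and Loxl3, and the lysyl hydroxylases are Plod1 and Plod2. The others are the prolyl hydroxylase subunit P4ha1 and the procollagen protease Adamts14. These 8 genes were chosen by name, and 5 of them are among the 1592 gene names in 3 deposited tables. RNA was sequenced from primary astrocyte cultures after 24 h with SB431542 (3 samples), an inhibitor of RUNX1 (3 samples), HLM006474 (3 samples) or vehicle (4 samples). All cultures were made from wild-type C57BL/6 mice in their first postnatal days, from retina and optic nerve, and grew in medium with serum. SB431542 inhibits the receptor kinases through which TGF-beta and activin signal. HLM006474 inhibits E2F transcription factors. The remaining compound, an inhibitor of the transcription factor RUNX1 and its partner CBFB, is called the RUNX1 inhibitor and carries its label in the panel titles of the plot of members by compound. Whether any compound acted through its target was not tested. Doses are not stated in the labels. Each table lists genes with an adjusted p under 0.05 and a change of at least 1.5 times, and values per sample were not analysed here. Each comparison is set against the same 4 vehicle samples.

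Collagen chains are hydroxylated on proline and lysine in the endoplasmic reticulum, trimmed of their propeptides during or after secretion, and then joined into fibrils by covalent cross-links. P4ha1 is a catalytic subunit of prolyl 4-hydroxylase, which makes the hydroxyproline that holds the triple helix together. Plod1 hydroxylates lysines of the helix, and Plod2 those of the telopeptides, which give cross-links that resist breakdown. Lox and its relatives are copper enzymes that oxidise lysine side chains so that collagen and elastin can cross-link, and Adamts14 removes the amino-terminal propeptide of fibrillar procollagen. In fibroblasts TGF-beta is a known inducer of Lox and Plod2.

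Under SB431542 the lysyl oxidases Lox, Loxl1 and Loxl2 and the lysyl hydroxylase Plod2 fell, and Loxl3, Plod1, P4ha1 and Adamts14 were not listed. In bulk RNA, fewer cells of a type cannot be told apart from less RNA per cell. Adamts14 was listed as lower under the RUNX1 inhibitor and HLM006474. No member was listed as higher in any table. Of the 8 members 4 were listed as lower under SB431542, 1 under the RUNX1 inhibitor and 1 under HLM006474, where 2.64%, 2.32% and 4.22% of all genes tested were listed as lower in those comparisons. The members were chosen with these tables known, so the counts are a description. Loxl3, Plod1 and P4ha1 were in none of the 3 tables, so neither a level nor a fold change is given for them.

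The plot of members by compound shows the 6 listed values and their intervals.

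**Figure D1:**
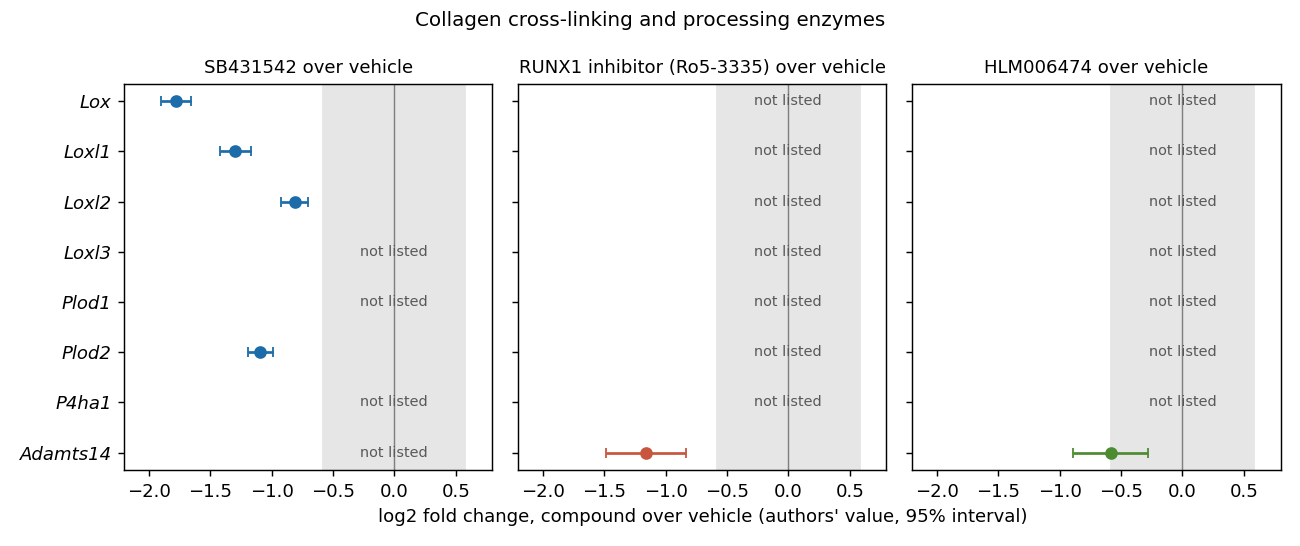
Log2 fold change of each enzyme gene under SB431542, the RUNX1 inhibitor and HLM006474 over vehicle, as deposited by the authors; points are the values, bars their 95% intervals, and the grey band the changes too small to be listed. The 4 listed genes under SB431542 run from -1.78 for Lox to -0.81 for Loxl2, and Adamts14 under HLM006474 lies at the edge of the band at -0.59.

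Lox, the founding lysyl oxidase, had the steepest fall of the 4. Its log2 fold change was -1.78 ± 0.063 (SE, 3 SB431542 and 4 vehicle samples; adjusted p = 1.53e-171, DESeq2) in the authors' deposited table. This leaves 29.1% of the vehicle level, with a 95% interval of 26.7 to 31.7%. By p-value it ranked 6 of the 15169 genes tested for SB431542. Among the 44 lower genes whose mean count was at least that of Lox, its fall ranked 2. Among all 401 lower genes its fall ranked 60.

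Loxl1, the family member best known for its part in elastic fibre upkeep, lies on chromosome 9 at 58287723 to 58313212 (GRCm38). It stood at -1.29 ± 0.063 on the log2 scale (adjusted p = 1.11e-89, DESeq2) in the authors' deposited table. The level under SB431542 was 40.8% of vehicle, with an interval of 37.4 to 44.4%. It ranked 20 by p-value among all genes tested, and 6 by size of fall among the 64 lower genes with at least its mean count. Its fall ranked 101 among all 401 lower genes.

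Loxl2, which cross-links collagen IV of basement membranes and lies on chromosome 14 at 69608692 to 69695834, had the smallest fall of the listed oxidases. Its log2 fold change was -0.81 ± 0.058 (adjusted p = 9.43e-43, DESeq2) in the authors' deposited table, and its level was 56.9% of vehicle with an interval of 52.7 to 61.6%. It ranked 51 by p-value and, by size of fall, 16 among the 33 lower genes with at least its mean count. Over all 401 lower genes its fall ranked 238.

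Plod2, on chromosome 9 at 92539636 to 92608428, was the only hydroxylase of the members in any of the tables. It stood at -1.09 ± 0.051 (adjusted p = 3.60e-99, DESeq2) in the authors' deposited table, 47.0% of vehicle with an interval of 43.8 to 50.3%. It ranked 14 by p-value, and its fall ranked 4 among the 31 lower genes with at least its mean count and 140 among all 401. Plod1, on chromosome 4 at 147909753 to 147936776, and P4ha1, on chromosome 10 at 59323197 to 59373304, serve other hydroxylation steps and were not listed. Loxl3, on chromosome 6 at 83034205 to 83052566, was not listed either.

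The plot of genes listed for SB431542 places the members among the other calls.

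**Figure D2:**
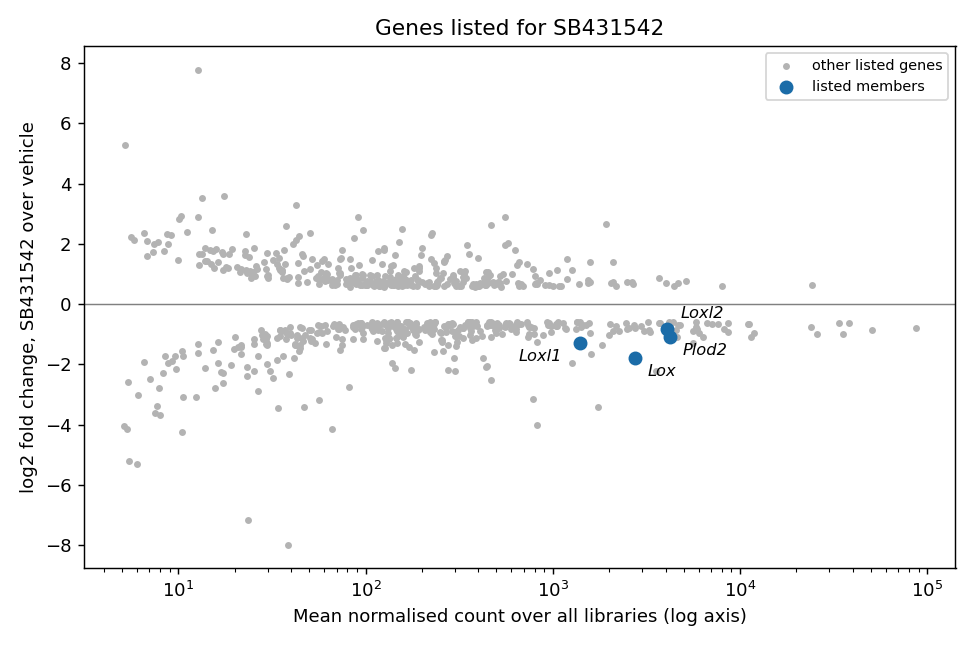
Log2 fold change over vehicle against the mean normalised count over all libraries (log axis) for genes listed under SB431542, 1 point per gene; genes with changes beyond 10 on the log2 scale are left off. The 4 members lie at mean counts of 1397 to 4204 and at -1.78 to -0.81.

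The 4 falls were unequal. The 95% intervals of the log2 fold changes did not overlap in 5 of the 6 pairs of genes. Lox fell further than Loxl2 by a log2 difference of -0.97 ± 0.085 and than Plod2 by -0.69 ± 0.081, computed from the authors' deposited table. Loxl1 and Plod2 were the pair whose intervals overlapped, at a log2 difference of -0.20 ± 0.081. These errors treat the genes as independent although they come from the same libraries, and no p is given.

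Per kilobase of exon, the mean normalised count over all libraries was 780 for Plod2, 758 for Loxl2, 572 for Lox, 424 for Loxl1 and 39.5 for Adamts14. This level averages the treated and vehicle libraries, so for a gene lowered by SB431542 it need not match the vehicle level. No spread over samples is known for it, so whether neighbours in this order differ cannot be judged. Of the 5 members with a value, Adamts14 had the fewest reads, at a mean count of 205 against 1397 to 4204 for the other 4 in the authors' deposited tables.

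Errors were larger for Adamts14 than for the other listed members. In the SB431542 table, 31 other genes had a mean count within 1.5 times that of Lox, and the standard error of Lox, 0.063, lay under their median of 0.073. The errors of Loxl1, Plod2 and Loxl2 were also under the medians of genes with like counts, which were 0.081, 0.059 and 0.059 in that order. Adamts14 had errors of 0.16 under both compounds, beside medians of 0.17 for like genes, in the authors' deposited tables. No listed member thus had a larger error than was typical for its count.

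**Figure D3:**
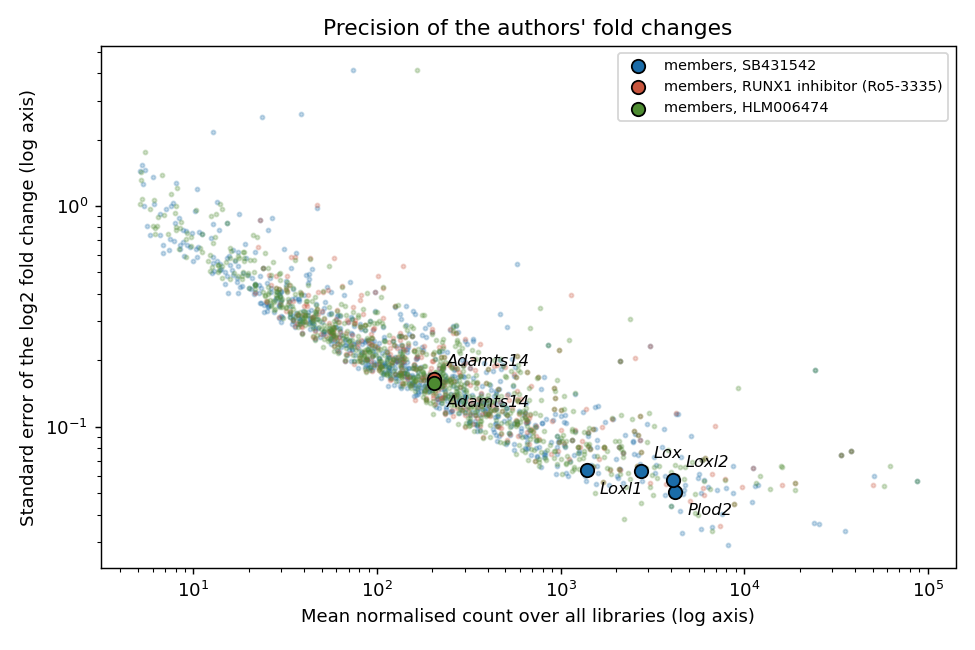
Standard error of the log2 fold change against the mean normalised count, both on log axes, for every gene in the 3 authors' tables; large outlined points are the members, coloured by compound. The 4 genes listed under SB431542 have errors of 0.051 to 0.063, and Adamts14 has 0.16 under each of its 2 compounds.

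Adamts14 lies on the minus strand of chromosome 10 at 61197112 to 61273419. It is the member listed under compounds other than SB431542, and the bases before its annotated start are shown because it is the one listed member matched in the RefSeq promoter table (build GRCm38.p6), where 3 of the 8 members matched. They cover chr10:61273420-61273669 on the minus strand, 5′ to 3′, and capitals mark GC boxes (GGGCGG, here read as CCGCCC on the other strand).
Adamts14: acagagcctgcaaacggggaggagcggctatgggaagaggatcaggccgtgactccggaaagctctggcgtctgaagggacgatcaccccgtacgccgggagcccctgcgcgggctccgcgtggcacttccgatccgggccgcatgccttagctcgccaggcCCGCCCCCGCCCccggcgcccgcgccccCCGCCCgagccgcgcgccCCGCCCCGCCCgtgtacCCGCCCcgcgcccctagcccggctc
These 250 bases hold 6 GC boxes, with 76.4% G and C and 35 CpG pairs. The median over all 32851 promoters in the table was 52.4% G and C, and 2.82% of them were richer. Counting also the 50 bases after the start there were 7 GC boxes on either strand, and 35.7% of all promoters hold at least 1. The RUNX letters TGTGGT and TGCGGT, found in 16.8% and 6.45% of promoters, were not in this window on either strand. Nor were the E2F letters TTTCCCGC, TTTGGCGC and TTTCGCGC, found in 1.07%, 0.514% and 0.323% of promoters. A match or its lack in this window describes these letters only.

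Adamts14 was lower under the RUNX1 inhibitor, with a log2 fold change of -1.16 ± 0.16 (adjusted p = 1.22e-10, DESeq2) in the authors' deposited table. This is 44.8% of vehicle, with a 95% interval of 35.8 to 56.0%. It ranked about 199 by p-value of 13561 genes tested, and 5 by size of fall among the 156 lower genes with at least its mean count. Among all 315 lower genes there its fall ranked 35. Under HLM006474 the same gene stood at -0.59 ± 0.16 (adjusted p = 0.00163, DESeq2) in the authors' deposited table, 66.7% of vehicle with an interval of 53.8 to 82.6%. That value lies 0.0045 inside the table's smallest listed log2 change of 0.58, so its listing under HLM006474 turns on the fold limit. By size of fall Adamts14 ranked 631 among the 640 lower genes under HLM006474, and 276 among the 281 with at least its mean count.

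The fall of Adamts14 under HLM006474 and under the RUNX1 inhibitor differed by 0.57 ± 0.23 on the log2 scale, HLM006474 minus RUNX1 inhibitor, with a 95% interval of 0.13 to 1.02. After adjustment over the 212 genes in both tables this did not pass (z test, adjusted p = 0.107), where 9.43% of those genes did. With an error that allows for the shared vehicle samples and takes all groups to vary alike, the difference was 0.57 ± 0.17 and passed (z test, adjusted p = 0.00777). The first error is too large here because both comparisons share their vehicle samples, and whether all groups vary alike was not tested. The call thus depends on how the error of the difference is built.

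Among the 154 other genes listed under the RUNX1 inhibitor and HLM006474 and not under SB431542, the closest to Adamts14 over the 2 fold changes were Car12, Ccn3 and Cldn1, with a largest log2 difference of 0.17, 0.19 and 0.19. Car12, a carbonic anhydrase gene, stood at -0.99 ± 0.30 under the RUNX1 inhibitor and -0.73 ± 0.29 under HLM006474 in the authors' deposited tables. Ccn3, a matricellular protein gene, stood at -1.15 ± 0.18 and -0.77 ± 0.17 under those compounds in the authors' deposited tables. Cldn1, a tight junction gene, stood at -1.06 ± 0.32 and -0.78 ± 0.31 likewise in the authors' deposited tables.

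The absence of Lox, Loxl1, Plod2 and Loxl2 from the RUNX1 inhibitor and HLM006474 tables bounds their changes there. Their values under those compounds were not analysed here. They entered this test because they were listed under SB431542 and not under the other compound. The p-values below therefore rest on that selection and on an assumed error, and do not come from a direct comparison of compounds. If they were tested with errors like those under SB431542, a change of more than 0.58 on the log2 scale would have been listed. Lox was then lower under SB431542 than under HLM006474 by at least 1.20 ± 0.089 (z test beyond the limit, adjusted p = 5.54e-39 over 587 genes), and by as much against the RUNX1 inhibitor (adjusted p = 4.26e-39 over 573 genes). The least log2 difference from HLM006474 was 0.71 ± 0.090 for Loxl1, 0.51 ± 0.072 for Plod2 and 0.23 ± 0.081 for Loxl2, with adjusted p = 6.08e-14, 3.94e-11 and 0.0344 by the same test. Under that assumption all 4 passed against the limit of each of the other compounds. Among genes selected in the same way, 14.5% passed against HLM006474 and 18.8% against the RUNX1 inhibitor. With the largest error seen at a like mean count in the other table, Lox still passed against both (adjusted p = 0.0435 against HLM006474 and 4.05e-05 against the RUNX1 inhibitor), Plod2 passed against HLM006474 only (adjusted p = 0.00251), and Loxl1 and Loxl2 passed against neither (adjusted p of 0.194 to 1). Against the RUNX1 inhibitor under that error, Plod2 had an adjusted p of 0.470.

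In the other direction, Adamts14 was lower under the RUNX1 inhibitor by at least 0.58 ± 0.23 than the SB431542 limit, which did not pass (z test, adjusted p = 0.242 over 304 genes, of which 0.658% passed). Its fall under HLM006474 exceeded that limit by 0.0048 ± 0.22 (z test, adjusted p = 1 over 694 genes, of which 5.91% passed). That Adamts14 is missing from the SB431542 table is therefore not shown to be a difference between the compounds.

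Other genes of collagen modification, folding and processing were counted as well. Of 28 such genes, members excluded, 2 were lower under SB431542 (7.14%), 1 under the RUNX1 inhibitor (3.57%) and 2 under HLM006474 (7.14%). Among all genes tested, 2.64%, 2.32% and 4.22% were listed as lower in those comparisons. None of the 28 was higher. Fkbp10, a collagen chaperone needed for telopeptide lysine hydroxylation, stood at -0.59 ± 0.066 under SB431542 in the authors' deposited table, close to the limit. Tgm2, a transglutaminase that cross-links matrix proteins by another chemistry, stood at -0.63 ± 0.11 under SB431542 and -0.76 ± 0.11 under HLM006474 in the authors' deposited tables. Colgalt2, which adds galactose to hydroxylysine, stood at -0.74 ± 0.13 under the RUNX1 inhibitor, and Pcolce, an enhancer of carboxy-terminal procollagen cleavage, at -0.87 ± 0.088 under HLM006474, in the authors' deposited tables. Neither Loxl4, Plod3, P4ha2, P4hb and Serpinh1 nor the proteases Bmp1, Adamts2 and Adamts3 were in any of the 3 tables.

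Elastic fibres and fibrillar collagens are the substrates of the cross-linking enzymes. Of 10 elastic fibre genes 7 were lower and none higher under SB431542 (70.0% of the list), with 1 lower under the RUNX1 inhibitor (10.0%) and 2 under HLM006474 (20.0%). Mfap4, a microfibril-associated protein, stood at -1.43 ± 0.16 and Eln, the elastin gene, at -1.07 ± 0.10 under SB431542 in the authors' deposited table. Fbln5, which brings Loxl1 to elastin, stood at -0.93 ± 0.067, and the fibrillin gene Fbn1 at -0.91 ± 0.091, under SB431542 in the authors' deposited table. Fbn2, another fibrillin gene, was listed under all 3 compounds, at -0.82 ± 0.18 under SB431542, -0.78 ± 0.18 under the RUNX1 inhibitor and -1.25 ± 0.19 under HLM006474 in the authors' deposited tables. Of 11 fibrillar collagen chains 5 were lower under SB431542 (45.5%), 1 under the RUNX1 inhibitor and 1 under HLM006474 (9.09% each), and none was higher. Col2a1, the chain of cartilage collagen, stood at -2.10 ± 0.12, Col1a1 at -1.08 ± 0.054, Col5a2 at -0.95 ± 0.055 and Col1a2 at -0.90 ± 0.061 under SB431542 in the authors' deposited table. Col11a2, the one chain listed under the other compounds, stood at -1.22 ± 0.43 under the RUNX1 inhibitor and -1.78 ± 0.43 under HLM006474 in the authors' deposited tables. The median fold change over these lists is not given, because values of genes outside the tables were not analysed here.

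**Figure D4:**
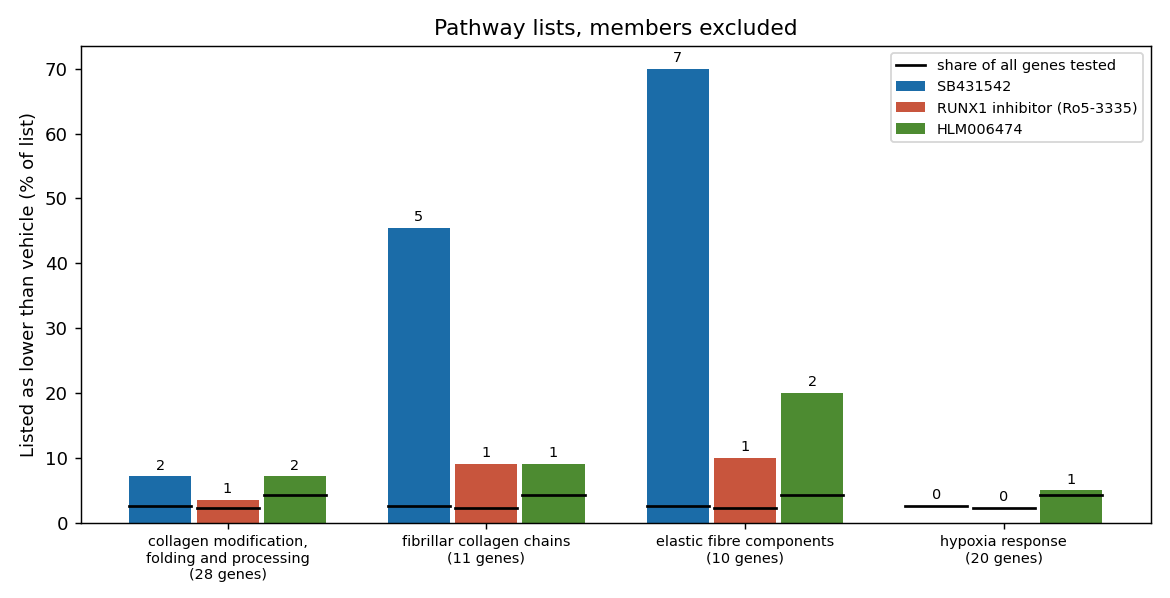
Share of each pathway list in the authors' tables as lower than vehicle, in percent, by compound, with the number of genes above each bar; black lines mark the share of all genes tested in that comparison (2.64%, 2.32% and 4.22%). Elastic fibre genes under SB431542 have the tallest bar, 7 of 10, followed by fibrillar collagen chains under SB431542, 5 of 11.

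Lox, Plod2 and P4ha1 are also known targets of the hypoxia-inducible factors. Of 20 other hypoxia response genes none was listed in either direction under SB431542 or the RUNX1 inhibitor. Under HLM006474, 3 were higher and 1 lower, where 1.42% of all genes tested were listed as higher and 4.22% as lower. Ankrd37 stood at 1.98 ± 0.59 on a mean count of 9.11, the glucose transporter gene Slc2a1 at 0.75 ± 0.065, the growth factor gene Vegfa at 0.61 ± 0.10 and Ndrg1 at -0.61 ± 0.041, in the authors' deposited table. None of Lox, Plod2 and P4ha1 was listed there.

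Genes that mark other cell types were also listed. Of 12 markers of fibroblasts, pericytes and smooth muscle, 3 were lower under SB431542, 2 under the RUNX1 inhibitor and 6 under HLM006474, and none was higher. For this and the marker counts below, 2.64%, 2.32% and 4.22% of all genes tested were listed as lower in those comparisons. Under SB431542 the 3 lower markers were Cspg4, a pericyte and glial progenitor proteoglycan, at -1.04 ± 0.14, with the contractile genes Acta2 at -0.64 ± 0.078 and Tagln at -0.63 ± 0.074, all from the authors' deposited table. Acta2 and Tagln stood at -1.19 ± 0.078 and -1.13 ± 0.075 under the RUNX1 inhibitor. Under HLM006474 they stood at -1.09 ± 0.078 and -0.88 ± 0.074, and Cspg4 at -1.01 ± 0.14. The fibroblast markers Pdgfra, Dcn, Lum and Fap were not listed under SB431542, while Pdgfra stood at -0.84 ± 0.14 under HLM006474 in the authors' deposited table. Of 12 microglia and macrophage markers 4 were lower and 2 higher under SB431542, where 2.29% of all genes tested were listed as higher. The lower ones were Tmem119 at -4.00 ± 0.11, Cx3cr1 at -2.21 ± 0.081, P2ry12 at -1.19 ± 0.17 and C1qa at -0.66 ± 0.052 in the authors' deposited table. The higher ones were Cd68 at 0.72 ± 0.075 and Lyz2 at 0.65 ± 0.18 in the same table. Under HLM006474 3 were lower and 1 higher, where 1.42% of all genes tested were listed as higher, and under the RUNX1 inhibitor none was listed. Of 10 astrocyte markers Fabp7, a fatty acid binding protein gene, was the one listed, with a mean count of 18965 in the authors' deposited tables. It was lower under both compounds that lowered Adamts14, at -0.67 ± 0.055 under the RUNX1 inhibitor and -0.64 ± 0.055 under HLM006474 in the authors' deposited tables, and was not listed under SB431542. Of 6 endothelial markers Flt1 was lower under SB431542 and the RUNX1 inhibitor, and of 8 oligodendrocyte lineage markers 4 were lower under HLM006474. The summed level of these markers per group was not analysed here, and their part in the changes of the enzyme genes was not tested.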

How the data were processed

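Each of 3 deposited tables compares 1 compound with vehicle. CASAVA 1.8, STAR 2.7, DESeq2 1.30.1 and build GRCm38 are named, per the submitters' processing notes. The read counter, its annotation and strandedness are not given in sources used here. The authors' deposited tables hold, per the file headers, the mean normalised count over libraries (a signal level), the log2 fold change and its standard error, the Wald score, and the p-value before and after adjustment. Values per sample were not analysed here, so depth and replicate SDs are unknown, and no fit was made again from reads. The labels do not say if replicates are separate cultures, so p-values reflect only variation among these samples, possibly technical.

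Percentages of vehicle and 95% intervals were computed from each log2 fold change and its standard error. The number of genes tested, 15169, 13561 and 15169 for SB431542, the RUNX1 inhibitor and HLM006474, is the number that makes most ranks (p times number tested, over adjusted p) whole within 0.02, namely 80.5%, 83.6% and 81.1% of those checked. Differences between compounds were tested with a 2-sided z test and Benjamini-Hochberg adjustment over all genes in both tables, with the root of the summed squared errors, which is too large where vehicle samples are shared. For a gene in only 1 of 2 tables, the change beyond the other table's limits was tested in the same way over all such genes. The bound was planned, and its z test was added after seeing the data. Exon lengths came from GENCODE M21 and positions and promoters from RefSeq, both on GRCm38. The genes named are all 8 members, up to 6 per pathway list by size of change, and the 3 genes closest to a member listed in several tables. Marker genes, and genes named as outside the tables, were picked after their values were seen. The members, lists and tests were chosen with earlier results of these data known. Python 3.11.15, pandas 2.3.3 and scipy 1.17.1 were used.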

Additional observations from a re-analysis of the deposited data

How the results depend on the processing

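Depth and spread per library are unknown, so leaving out a replicate was not run. No paired analysis was possible because the tables hold no values per sample. Counts of members lower under SB431542 and the RUNX1 inhibitor stayed within 1.5 times under an adjusted p under 0.01, an absolute log2 fold change of at least 1 and a mean count of at least 100. Under HLM006474 the count was 1, and 0 with the limit of 1 on the log2 scale, which leaves out Adamts14; for SB431542 that limit leaves out Loxl2. For RUNX1 inhibitor minus SB431542, 16 genes passed, and 10 with Bonferroni adjustment. For HLM006474 minus the RUNX1 inhibitor, 20 passed, 7 with Bonferroni adjustment and 35 with the error that allows for shared vehicle samples. Under that error the difference of 0.57 for Adamts14 passed (z test, adjusted p = 0.00777), as given above. The number of members that passed the test beyond another table's limit was 4, and with the largest error at a like mean count 1 against the RUNX1 inhibitor and 2 against HLM006474. All were selected as listed under SB431542 and not under the other compound. Among genes selected alike, 18.8% passed against the RUNX1 inhibitor and 14.5% against HLM006474. With the largest error 34 of 573 and 18 of 587 passed. Of 33 counts of pathway list genes, recomputed under limits added after seeing the data, 10 moved by more than 1.5 times, all to lower counts. With that largest error, the excess of Adamts14 under HLM006474 over the SB431542 limit, 0.0048, became -0.32, and it passed in neither case. The limits and errors tried here leave the deposited fold changes and their differences between compounds as they are, so the signs of these could not change. The excess over a limit depends on the error used, and its sign did change for Adamts14 under HLM006474.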
